A study of Homo sapiens with 8 samples.

Results

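The HOX genes of the 4 clusters were taken as the 39 genes, of 58735 in the tables, that GENCODE release 29 lists as protein-coding under a name made of HOX, a cluster letter from A to D and a number, and they were joined to the tables by their Ensembl gene_id. A non-coding record that also carries the name HOXC5 had 3 reads in all 8 libraries and was left out. The samples were U2OS cells, a human osteosarcoma line, in which WSB2, a substrate-recognizing part of Cullin-RING E3 ubiquitin ligases, was or was not depleted, and the series asks how the transcriptome of both lines responds to the inflammatory cytokine TNF-α. The 4 groups of 2 RNA-seq libraries each were control cells carrying a control shRNA (labelled WT), unstimulated, the same control cells stimulated with TNF-α for 5 h, KD cells carrying a WSB2 shRNA, unstimulated, and KD cells stimulated with TNF-α for 5 h. Both lines were made by lentiviral transduction and puromycin selection, which WSB2 shRNA and which TNF-α concentration were used for these libraries is not given in the sources used here, and no label states that replicates came from separate cultures, so that every p-value measures the spread between libraries, which may be technical.

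HOX genes encode homeodomain transcription factors that set the identity of cells along the head-to-tail axis of the embryo and along the limbs. They lie in 4 clusters whose gene order follows the order of their expression along the axis, and genes at matching positions in different clusters form paralog groups, with the low numbers anterior and the high numbers posterior. Adult mesenchymal cells and many tumour lines keep a regional HOX code, which Polycomb complexes repress and MLL-type complexes maintain, and which acts with PBX and MEIS cofactors.

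On GRCh38 the HOXA cluster lies on chromosome 7 from 27092993 to 27200106 with 11 members, and HOXB lies on chromosome 17 from 48528526 to 48729178 with 10. HOXC lies on chromosome 12 from 53938765 to 54056030 with 9 members, and HOXD lies on chromosome 2 from 176092891 to 176190907 with 9. HOXA and HOXB are on the minus strand, and HOXC and HOXD are on the plus strand.

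The libraries held 15601098 to 18677023 reads that could be recovered from the FPKM values (fragments per kilobase of exon, scaled to library size, so that levels can be compared between genes), and 3973 to 6287 of them in a library were HOX reads. WSB2 itself stood at 27.9 ± 0.198 FPKM (SD, n = 2) in unstimulated control and 8.45 ± 0.0955 in unstimulated KD cells, and at 25.1 ± 0.196 and 9.09 ± 0.128 with TNF-α. The 2 unstimulated KD libraries stood apart from the other 6. Their mitochondrial reads made up 4.10% to 4.42% of all reads against 1.11% to 2.03%. The mean GC content of the longest transcript of each gene, weighted by reads, was 49.4% to 49.9% against 52.5% to 53.2%. Counts of members in each comparison that uses them are therefore also given after a correction of each library by the GC content and length of its genes (called the GC and length correction), and their part in the HOX results was not tested otherwise. Of the osteoblast markers listed, 7 of 12 averaged over 1 FPKM (summed level 399 to 545 FPKM over the 8 libraries, mostly COL1A1 and SPARC), while IBSP was at 0 reads, SP7 at 1, DLX5 at 16 and BGLAP at 25 reads in all, and COL1A2 stayed below 0.1 FPKM. The leukocyte list summed to at most 0.534 FPKM the endothelial list to at most 0.720 and the hepatocyte list to at most 1.66, and the epithelial list summed to 13.9 to 25.3 FPKM, mostly KRT14.

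The HOX genes with the highest levels in U2OS cells were posterior and central genes of the B and C clusters. HOXB9 had the highest mean level of all members, 27.5 FPKM over the 8 libraries, followed by HOXB7 at 20.1 FPKM and HOXC9 at 10.6 FPKM. Those 3 genes made up 48.5% of the summed HOX level. The next were HOXC13 at 7.58 FPKM, HOXC10 at 6.72 FPKM, HOXC8 at 5.74 FPKM, HOXA11 at 5.14 FPKM and HOXC6 at 4.75 FPKM. Neighbours in that order mostly could not be told apart by their spread: the ranges over the 8 libraries of every neighbouring pair among the first 8 overlapped, with the exception of HOXB7 and HOXC9. HOXB9 exceeded HOXB7 in 7 of 8 libraries, and HOXC13 exceeded HOXC10 in 4 of 8.

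**Figure D1:**
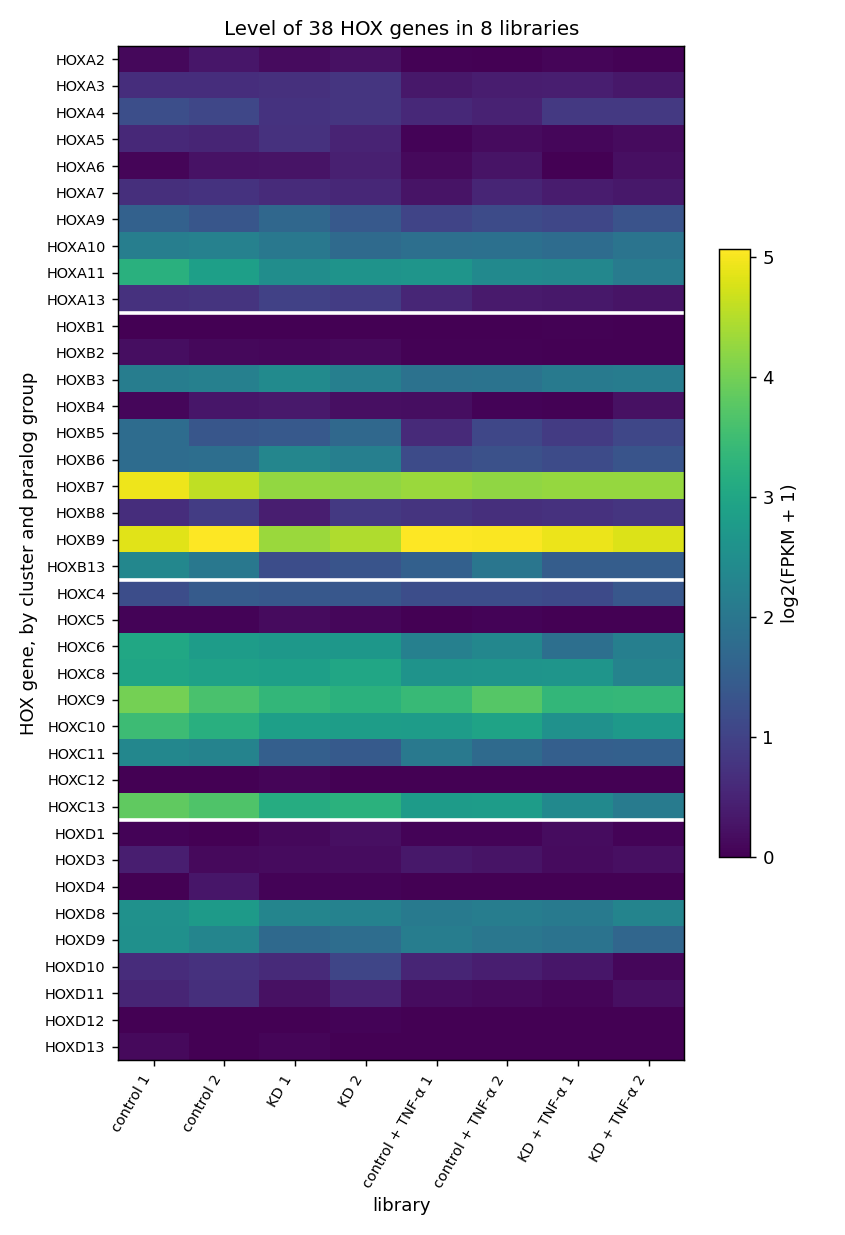
Heat map of log2(FPKM + 1) for 38 HOX genes (rows, by cluster and paralog group, white lines between clusters) in the 8 libraries (columns). HOXB7 and HOXB9 are the brightest rows in every library, and 10 members with 1 to 30 reads in all 8 libraries together stay dark.

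By cluster, HOXB carried 48.2% of the summed level, HOXC 32.9%, HOXA 12.1% and HOXD 6.83%. By position, the 16 members of paralog groups 9 to 13 carried 59.4%, the 15 of groups 4 to 8 carried 35.3%, and the 8 of groups 1 to 3 carried 5.28%. Paralog group 9 alone, with all 4 of its members measured, carried 35.6%. Group 12 was almost silent, at 0.0105 FPKM summed over HOXC12 and HOXD12. Among the anterior genes HOXB3, active in the hindbrain of the embryo, had the highest mean level, 3.38 FPKM.

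**Figure D2:**
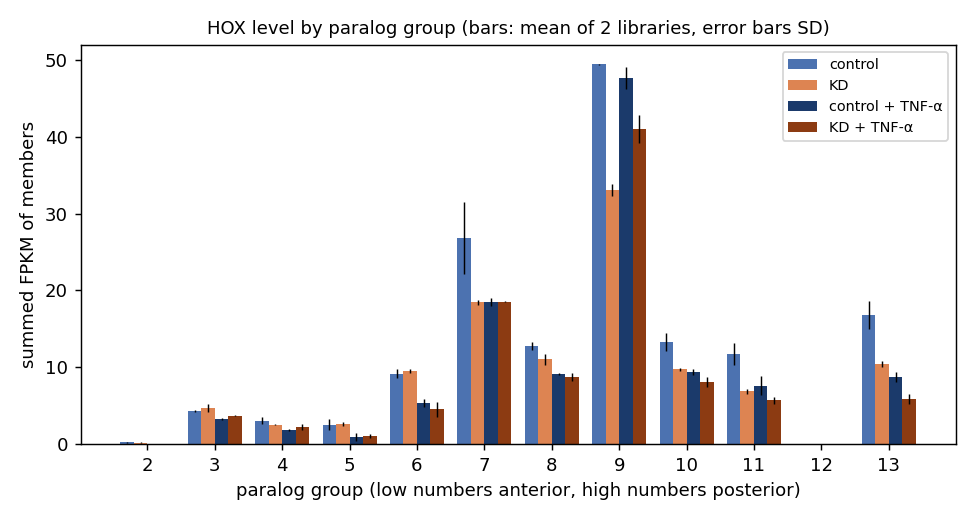
Summed FPKM of the members of each paralog group, from 2 (anterior) to 13 (posterior), in the 4 groups of samples; bars are means of 2 libraries and error bars are SD. Group 9 reaches 49.4 FPKM in unstimulated control cells, and groups 2 and 12 stay below 0.3 FPKM.

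The gene with the highest mean level of each cluster is given in every library. In HOXA it was HOXA11, which patterns the forearm and the uterus. For HOXA11 the libraries read 8.24 and 6.31 FPKM in control and 4.57 and 5.05 in KD cells without TNF-α, and 5.26 and 4.27 in control and 4.09 and 3.32 in KD cells with it. In HOXB it was HOXB9. The level of HOXB9 was 27.5 and 32.6 FPKM in unstimulated control cells and 32.4 and 32.1 FPKM with TNF-α, and in KD cells it was 18.7 and 21 FPKM without and 29.2 and 26.7 FPKM with TNF-α. Its lowest values were those of the unstimulated KD libraries, and the other 3 groups lay between 26.7 and 32.6 FPKM. In HOXC it was HOXC9, which marks thoracic levels of the spinal cord. Control cells held HOXC9 at 15.2 and 11.3 FPKM and KD cells at 9.29 and 8.45 FPKM without stimulation, against 9.73 and 12.2 FPKM in control and 9.2 and 9.34 FPKM in KD cells after TNF-α. In HOXD it was HOXD8. HOXD8 stood at 4.95 and 5.82 FPKM in unstimulated control cells, 3.95 and 3.76 in unstimulated KD cells, 3.27 and 3.45 in stimulated control cells, and 3.19 and 3.85 in stimulated KD cells. In HOXA11 both unstimulated control libraries lay above the other 6, as they did in HOXD8, while those of HOXC9 overlapped with the stimulated control libraries.

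Of the 39 members, 10 were not tested, because they did not reach 10 reads at the median depth in 2 libraries and 15 reads in all. They were HOXA2, HOXA6, HOXB1, HOXB2, HOXC5, HOXC12, HOXD1, HOXD4, HOXD12 and HOXD13, with 119 reads together. HOXB1 and HOXD12 had 1 read each. HOXA2 had 30 reads, in 7 of 8 libraries, and HOXA6 had 28, also in 7, so that these genes were detected at levels too low for the test. The other 29 had between 71 and 9520 reads. A group mean for each of the 4 groups was fitted with limma to log2(FPKM + 1) of 16528 genes, and members are called at an adjusted p under 0.05 over all those genes. Fold changes on this scale understate changes of low genes, and ratios of mean FPKM are given beside them. A member that passed only through a group where it was high was bound to differ, so that counts over the 29 describe those members and not all 39. Among members called lower with TNF-α, HOXA5 and HOXD11 reached 10 reads only in unstimulated libraries, where they were high. The comparisons share libraries with one another, so that likeness between them is not independent.

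TNF-α lowered HOX genes across all 4 clusters in control cells. Of the 29 members tested, 8 were called lower (27.6%) and 0 higher, where 1.14% of all genes tested were called lower and 3.1% higher. These 8 include HOXA5 and HOXD11, which passed the filter through unstimulated libraries alone. The count was 8 with the GC and length correction as well, against 1.62% of all genes, and 4 without the unstimulated KD libraries, against 0.581%. The log2 fold change was below 0 for 27 of 29 members, with a median of -0.36 for the members against 0.01 for all genes. At an unadjusted p under 0.05 there were 21 members (72.4%), against 17.5% of all genes. In bulk RNA, fewer cells that express a gene and less of its RNA per cell cannot be told apart. HOX reads made up 0.0372% ± 0.000153 of all reads (SD, n = 2) without and 0.0264% ± 9.9e-07 with TNF-α, and the summed HOX level was 153 ± 9.57 against 114 ± 1.82 FPKM. Mitochondrial reads made up 2.03% ± 0.0132 of reads without and 1.18% ± 0.0998 with TNF-α in the same cells (SD, n = 2), and the unstimulated control replicates differed more from each other than those of any other group (mean chi-square per gene 30.1 against 2.45 to 7.23). The part of either in the HOX results was not tested.

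Of the 8 members called lower, 7 are described here, HOXC13, HOXC6, HOXA4, HOXB6, HOXD8, HOXD11 and HOXA5. HOXC13, a regulator of hair and nail keratins, had the largest log2 fold change on the log2(FPKM + 1) scale, while by the ratio of means HOXA5, HOXD11 and HOXA4, at lower levels, changed more. For HOXC13 the libraries read 13.2 and 11.7 FPKM in control and 7.81 and 8.4 in KD cells without TNF-α, and 5.89 and 5.97 in control and 4.28 and 3.34 in KD cells with it. No 2 groups overlapped, with unstimulated control cells the highest and stimulated KD cells the lowest. With TNF-α, HOXC13 was 2.10-fold lower in control cells by the ratio of means (log2 fold change -0.96 ± 0.12 SE, limma adjusted p = 0.0040), and it kept its call in all 18 alternative fits. The level of HOXA4 was 1.34 and 1.12 FPKM in unstimulated control cells and 0.504 and 0.408 FPKM with TNF-α, and in KD cells it was 0.664 and 0.712 FPKM without and 0.795 and 0.797 FPKM with TNF-α. HOXA4, a gene of the neck vertebrae, was 2.70-fold lower with TNF-α in control cells (log2 fold change -0.61 ± 0.08 SE, limma adjusted p = 0.00713) and kept its call in 14 of 18 fits. A gene on the same strand shares 31.0% of HOXA4's exon bases, and reads in the shared part cannot be told apart. On the opposite strand HOXA-AS2 and HOXA-AS3 share 16.3% of them, where reads cannot be told apart without strand. Sharing on the same strand covered 16.6% of the exon bases of HOXB6, 15.7% of HOXC6 and 21.4% of HOXD11. It was 0 for HOXA5, HOXB7, HOXB9, HOXB13, HOXC8, HOXC11, HOXD8 and HOXD9.

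Control cells held HOXA5 at 0.508 and 0.44 FPKM and KD cells at 0.65 and 0.425 FPKM without stimulation, against 0.0368 and 0.114 FPKM in control and 0.0678 and 0.111 FPKM in KD cells after TNF-α. HOXA5, a lung development gene, was 6.29-fold lower by the ratio of means, which rests on 13 and 13 reads without and 1 and 3 reads with TNF-α (log2 fold change -0.46 ± 0.08 SE, limma adjusted p = 0.0258). HOXB6 stood at 2.48 and 2.55 FPKM in unstimulated control cells, 3.99 and 3.54 in unstimulated KD cells, 1.23 and 1.39 in stimulated control cells, and 1.22 and 1.48 in stimulated KD cells. HOXB6, a trunk gene, was 1.92-fold lower (log2 fold change -0.61 ± 0.11 SE, limma adjusted p = 0.0262), and its highest values were those of the unstimulated KD libraries. HOXB-AS3, on the opposite strand, shares 16.3% of the exon bases of HOXB6, and reads in that part cannot be told apart without strand.

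For HOXC6 the libraries read 7.07 and 6.01 FPKM in control and 5.53 and 5.46 in KD cells without TNF-α, and 3.62 and 4.1 in control and 2.63 and 3.56 in KD cells with it. HOXC6, which marks forelimb levels of the spinal cord, was 1.69-fold lower (log2 fold change -0.63 ± 0.14 SE, limma adjusted p = 0.0465). HOXD8, whose values stand above, was 1.60-fold lower (log2 fold change -0.55 ± 0.12 SE, limma adjusted p = 0.0464). The level of HOXD11 was 0.443 and 0.602 FPKM in unstimulated control cells and 0.119 and 0.0922 FPKM with TNF-α, and in KD cells it was 0.167 and 0.393 FPKM without and 0.0549 and 0.15 FPKM with TNF-α. HOXD11, a gene of forearm and kidney development, was 4.94-fold lower on 14 and 22 reads against 4 and 3 (log2 fold change -0.46 ± 0.10 SE, limma adjusted p = 0.0438). The other calls were kept in fewer fits, 9 of 17 for HOXA5, 8 of 18 for HOXB6, 6 of 18 for HOXD8, 5 of 18 for HOXC6 and 5 of 17 for HOXD11. Leaving out any 1 library other than control replicate 2 without TNF-α reduced the 8 calls to between 1 and 4, and leaving that one out gave 10. The direction moved less, with 26 to 28 of 29 members below 0 in those fits.

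**Figure D3:**
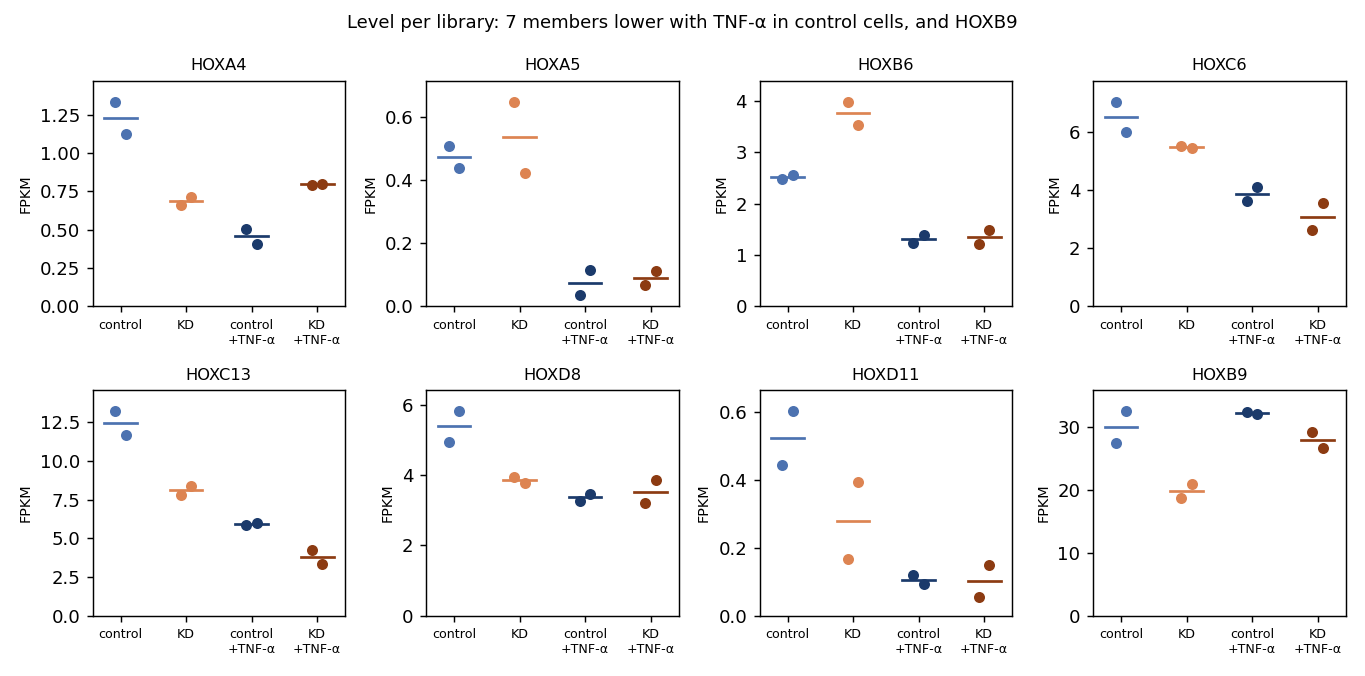
FPKM in each library (dots) and the mean of 2 (lines) for 7 members called lower with TNF-α in control cells, and for HOXB9; each panel starts at 0 and has its own scale. Both stimulated control libraries lie below both unstimulated control libraries in these 7 members, and the values of HOXB9 overlap between these groups. The 7 were drawn because of that call, and uncalled members such as HOXA3 and HOXA10 did not overlap between these groups either.

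The decrease differed between members. HOXB9, the most abundant, was at 30.02 FPKM without and 32.2 FPKM with TNF-α on average in control cells (log2 fold change 0.10 ± 0.10 SE, limma adjusted p = 0.674), and HOXD3 was the other member above 0, at 0.01. The largest fall that missed the threshold was that of HOXB5 (log2 fold change -0.73 ± 0.21 SE, limma adjusted p = 0.111), whose replicates were spread widely. By position, 5 of 12 members of groups 4 to 8 were called lower, with a median log2 fold change of -0.47, against 2 of 13 in groups 9 to 13 (median -0.36). The difference between positions was not tested. By cluster, the members called lower were 3 of 9 in HOXA, 1 of 8 in HOXB, 2 of 7 in HOXC and 2 of 5 in HOXD, and all 9 tested HOXA members and all 7 tested HOXC members were below 0.

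The RefSeq promoter windows of members that fell together with TNF-α show what sequence lies at their starts. Windows run from 250 bases before to 50 bases after a transcript start on GRCh38.p14, and 27 of them belonged to 20 of the 39 members, among them 3 of the 8 members called lower. HOXA4 is read from chr7:27130708-27131007 on the minus strand, HOXD8 from chr2:176129455-176129754 and HOXD11 from chr2:176107030-176107329, both on the plus strand. HOXA13 from chr7:27200042-27200341 on the minus strand is added because its TNF-α effect is described further on. Capitals mark TAAT, the core that homeodomains bind, on either strand, so that ATTA is the same match read on the other strand.
HOXA4: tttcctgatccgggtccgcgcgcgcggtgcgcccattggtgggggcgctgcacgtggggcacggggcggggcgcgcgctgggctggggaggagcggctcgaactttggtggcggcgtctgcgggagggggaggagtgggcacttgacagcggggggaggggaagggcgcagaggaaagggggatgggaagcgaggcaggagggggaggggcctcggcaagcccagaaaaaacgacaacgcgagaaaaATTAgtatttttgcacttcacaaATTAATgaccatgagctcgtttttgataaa
HOXD8: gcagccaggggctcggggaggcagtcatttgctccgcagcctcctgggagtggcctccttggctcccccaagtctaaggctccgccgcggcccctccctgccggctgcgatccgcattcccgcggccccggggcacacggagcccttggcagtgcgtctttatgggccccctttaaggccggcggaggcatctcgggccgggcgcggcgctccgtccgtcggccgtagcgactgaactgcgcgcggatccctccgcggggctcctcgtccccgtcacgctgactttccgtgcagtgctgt
HOXD11: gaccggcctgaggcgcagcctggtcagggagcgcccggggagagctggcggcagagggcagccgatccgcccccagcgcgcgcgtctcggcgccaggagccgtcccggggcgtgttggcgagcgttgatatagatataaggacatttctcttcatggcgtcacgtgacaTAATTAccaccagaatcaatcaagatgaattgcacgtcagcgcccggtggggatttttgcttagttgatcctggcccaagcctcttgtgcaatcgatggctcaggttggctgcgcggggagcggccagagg
HOXA13: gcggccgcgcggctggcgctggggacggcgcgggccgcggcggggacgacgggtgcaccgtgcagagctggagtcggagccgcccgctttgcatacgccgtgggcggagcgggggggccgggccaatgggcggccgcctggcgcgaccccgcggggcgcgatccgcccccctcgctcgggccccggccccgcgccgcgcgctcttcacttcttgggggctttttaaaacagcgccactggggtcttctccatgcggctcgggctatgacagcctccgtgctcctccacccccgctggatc

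The HOXA4 window held 3 matches of TAAT and the HOXD11 window 2, with overlapping matches counted, and the HOXD8 and HOXA13 windows held 0. Of the 27 HOX windows, 21 held TAAT (77.8%) against 50.2% of all 35116 windows of that length, and the single window of HOXC4 and HOXC5 is counted under both names. Several of the 27 windows are starts of HOXA3, more than of any other member, so that the windows are not spread evenly over the genes. The κB consensus, the site that NF-κB factors bind, occurred on either strand in 3 of the 27 HOX windows (11.1%), those of HOXA2 and the window that HOXC4 and HOXC5 share, counted under each name, against 11.3% of all windows. HOX windows held a median of 22 CG dinucleotides against 14 in all windows, and HOXA4 had 27, HOXD8 34, HOXD11 27 and HOXA13 44. The RefSeq start in the HOXD11 window lies 3064 bases inside the GENCODE gene, while those of HOXA4, HOXD8 and HOXA13 start within 42 bases of the GENCODE gene's own start.

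In KD cells, TNF-α lowered 11 of the 29 members (37.9%) and raised 1 (3.45%), where 31.4% of all genes tested were called lower and 31.1% higher, so that the share called lower was close to the background. The median log2 fold change was -0.21 for the members and -0.01 for all genes, and 20 of 29 members were below 0. This comparison uses the unstimulated KD libraries. After the GC and length correction 23 of 29 members were called lower (79.3%) and 0 higher, against 26.1% and 30.5% of all genes, with 28 of 29 below 0. Scaled to total reads, 19 were lower (65.5%) against 43.8% of all genes. With upper-quartile factors 7 were lower (24.1%) against 24.7% of all genes, so that the count depended on the scaling. HOX reads made up 0.0343% ± 0.000106 of all reads (SD, n = 2) without and 0.0234% ± 4.96e-05 with TNF-α, a share that depends on total reads alone. The summed HOX level in KD cells was 112 ± 1.097 FPKM (SD, n = 2) without and 102 ± 1.31 FPKM with TNF-α. That fall was smaller than the one from 153 to 114 FPKM in control cells.

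HOXA5, HOXB6, HOXC6 and HOXC13 were among the members called lower in both lines, 5 of the 8 called in control cells and 5 of the 11 called in KD cells. Of these, HOXA5 passed the filter through unstimulated libraries alone. The lines share no library, and both comparisons use 1 estimate of the spread. Of all genes tested, 31.4% were called lower in KD cells and 1.14% in control cells. How many genes were called lower in both lines is not given here, so that the overlap of the members has no background beside it. On the log2(FPKM + 1) scale HOXB6 had the largest change in KD cells, 2.79-fold lower by the ratio of means (log2 fold change -1.02 ± 0.11 SE, limma adjusted p = 0.000184), then HOXC13, 2.13-fold lower (log2 fold change -0.93 ± 0.12 SE, limma adjusted p = 0.000333). HOXC6 was 1.78-fold lower (log2 fold change -0.67 ± 0.14 SE, limma adjusted p = 0.00327), and HOXA5 was 6.01-fold lower on 22 and 14 reads against 2 and 3. By the ratio of means HOXA5, HOXD10 and HOXA13 changed more than HOXB6. After the GC and length correction the log2 fold changes were -1.47 for HOXB6, -1.45 for HOXC13, -0.98 for HOXC6 and -0.67 for HOXA5, all called lower. The fold of HOXC13 was thus near 2 in both lines, and the test of the difference between them gave 0.03 ± 0.17 SE (limma adjusted p = 0.902), or -0.49 (limma adjusted p = 0.0437) after the GC and length correction.

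Members called in KD cells and not in control cells were HOXA13, HOXD10, HOXB5, HOXC8, HOXA3 and HOXA9, all lower, and HOXB9, higher. Of these 7, the difference between the lines passed its own test for HOXA13 alone, and that of HOXB9 was 0.37 (limma adjusted p = 0.0698). Control cells held HOXA13 at 0.643 and 0.704 FPKM and KD cells at 0.982 and 0.876 FPKM without stimulation, against 0.457 and 0.28 FPKM in control and 0.25 and 0.211 FPKM in KD cells after TNF-α. HOXA13, which patterns the hand and the urogenital tract, was 4.02-fold lower with TNF-α in KD cells (log2 fold change -0.65 ± 0.08 SE, limma adjusted p = 0.000363). HOXD10 stood at 0.57 and 0.644 FPKM in unstimulated control cells, 0.525 and 1.1 in unstimulated KD cells, 0.444 and 0.337 in stimulated control cells, and 0.236 and 0.0705 in stimulated KD cells. HOXD10, a gene of the lumbar cord and the limb, was 5.28-fold lower on 28 and 57 reads against 11 and 3 (log2 fold change -0.64 ± 0.15 SE, limma adjusted p = 0.00612). HOXD11, on the same strand, shares 16.8% of the exon bases of HOXD10, and reads in that part cannot be told apart. In both HOXA13 and HOXD10 the stimulated KD libraries held the lowest values of all 8. With the GC and length correction the log2 fold changes were -0.38 for HOXA13 and -0.73 for HOXD10, both called lower.

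For HOXB5 the libraries read 2.48 and 1.56 FPKM in control and 1.68 and 2.28 in KD cells without TNF-α, and 0.523 and 1.11 in control and 0.851 and 1.12 in KD cells with it. HOXB5, a gene of the enteric nervous system, was 2.02-fold lower in KD cells (limma adjusted p = 0.0394). The level of HOXC8 was 6.92 and 6.48 FPKM in unstimulated control cells and 5.06 and 5.15 FPKM with TNF-α, and in KD cells it was 6.25 and 6.97 FPKM without and 5.24 and 3.82 FPKM with TNF-α. HOXC8, a thoracic gene, was 1.46-fold lower (limma adjusted p = 0.0153), and its groups with and without TNF-α did not overlap in either line. Control cells held HOXA3 at 0.589 and 0.577 FPKM and KD cells at 0.633 and 0.722 FPKM without stimulation, against 0.248 and 0.316 FPKM in control and 0.336 and 0.25 FPKM in KD cells after TNF-α. HOXA3, a gene of the pharyngeal arches and the thymus, was 2.31-fold lower in KD cells (log2 fold change -0.38 ± 0.07 SE, limma adjusted p = 0.00222) and 2.07-fold lower in control cells (limma adjusted p = 0.058). HOXB5, HOXC8 and HOXA3 were also called lower after the GC and length correction, at -0.98, -0.70 and -0.80. The rise of HOXB9 in KD cells, 1.41-fold (log2 fold change 0.48 ± 0.10 SE, limma adjusted p = 0.00457), was 0.04 after the GC and length correction (limma adjusted p = 0.807).

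**Figure D4:**
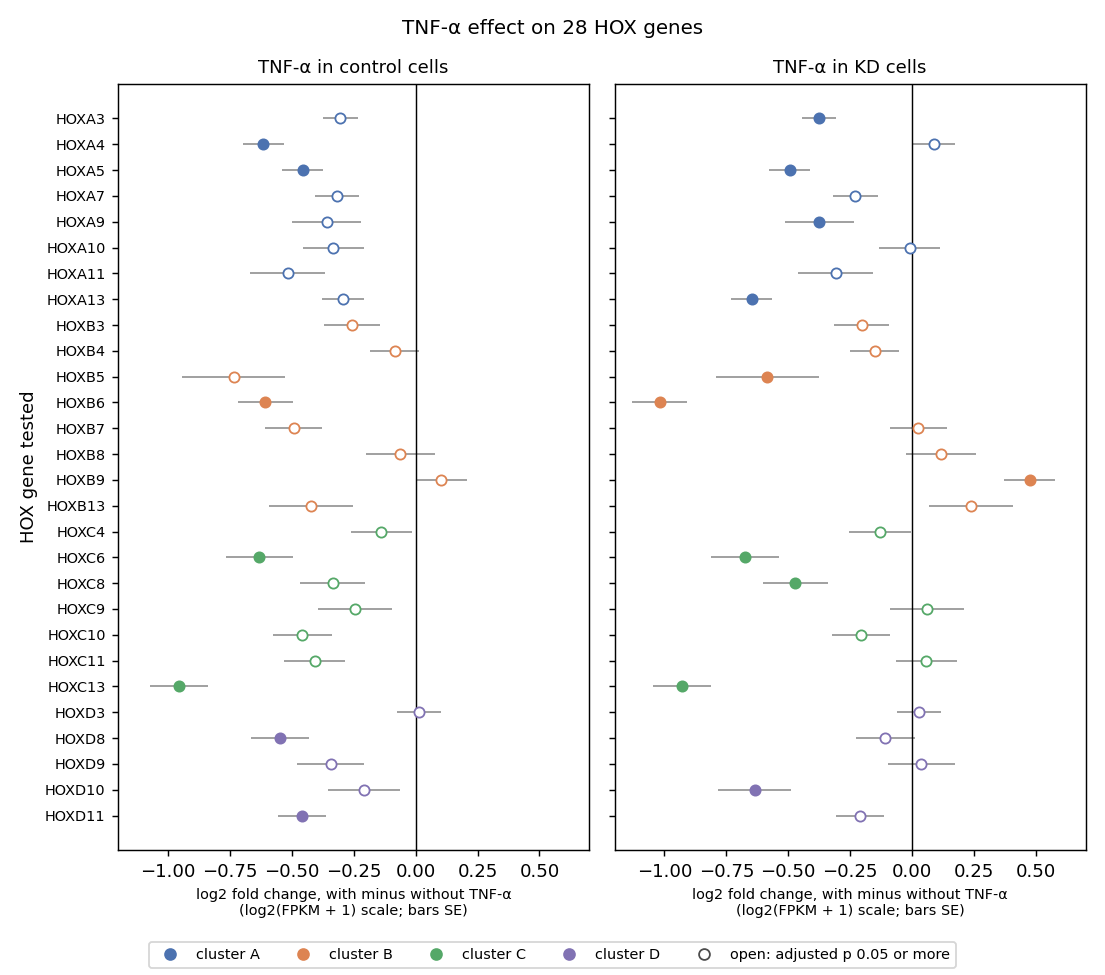
Log2 fold change with TNF-α of 28 HOX genes in control cells (left) and KD cells (right), on the log2(FPKM + 1) scale; bars are SE, colours are clusters, and filled points have an adjusted p under 0.05. In control cells 26 of 28 points lie below 0, and HOXB9 lies above 0 in both panels.

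The difference between the TNF-α effects of both lines, tested as an interaction, was called for 3 members: higher for HOXA4 and HOXB7 (6.90%) and lower for HOXA13 (3.45%), where 23.8% of all genes were called higher and 22.3% lower. HOXA4 fell in control cells and stood at 0.688 FPKM without and 0.796 FPKM with TNF-α in KD cells on average, a difference of 0.70 ± 0.12 SE on the log2 scale (limma adjusted p = 0.00335). That difference was 0.20 after the GC and length correction (limma adjusted p = 0.254). HOXB7 stood at 29.6 and 22.8 FPKM in unstimulated control cells, 18.1 and 17.8 in unstimulated KD cells, 18.7 and 17.7 in stimulated control cells, and 18.3 and 18.2 in stimulated KD cells. HOXB7 stood higher in unstimulated control cells than in the other 3 groups, which lay between 17.7 and 18.7 FPKM, and its interaction was 0.52 ± 0.16 SE (limma adjusted p = 0.0328) and 0.26 after the correction (limma adjusted p = 0.129). HOXA13 gave -0.36 ± 0.12 SE (limma adjusted p = 0.0402) and -0.11 after the correction (limma adjusted p = 0.515). After the correction 0 members were called higher and 4 lower (13.8%), against 19.0% and 15.8% of all genes.

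Knockdown of WSB2 without TNF-α was accompanied by lower deposited values of 11 of 29 members (37.9%) and a higher value of 1 (3.45%), where 30.2% of all genes were called lower and 29.8% higher. The share called lower was again near that of all genes, and the share called higher was below it. The median log2 fold change of the members was -0.15, and 8 of 13 members of paralog groups 9 to 13 were called lower against 3 of 12 in groups 4 to 8. That order of positions was not tested. Across the 29 members the Spearman correlation of this fold change with the GC content of the longest transcript was -0.48, and across 16520 genes it was -0.68, a description in which all points share the same 4 libraries. Members had a median GC content of 54.2% against 48.7% of all genes tested.

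With the GC and length correction, the same comparison called 3 members lower (10.3%) and 6 higher (20.7%), against 27.4% and 24.6% of all genes, and the members' median became 0.17. Scaled to total reads it called 5 lower (17.2%) and 4 higher (13.8%), against 20.9% and 39.4% of all genes. The 6 called higher after the correction were HOXB6 and, at group means of at most 0.677 FPKM, HOXA3, HOXA5, HOXA7, HOXB4 and HOXD3. Of these, HOXA7 (0.508 in KD against 0.640 FPKM in control cells) and HOXD3 (0.115 against 0.218 FPKM) had lower deposited levels in KD cells. The correction takes no account of the level of a gene. Across these scalings HOXB13 and HOXC11 were called lower and HOXB6 higher in all 3 of these fits.

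For HOXB13 the libraries read 4.12 and 3.1 FPKM in control and 1.31 and 1.48 in KD cells without TNF-α, and 1.94 and 2.97 in control and 1.82 and 1.82 in KD cells with it. HOXB13, a prostate gene in the adult, was 2.59-fold lower in unstimulated KD cells (log2 fold change -0.94 ± 0.17 SE, limma adjusted p = 0.00204), and -0.44 after the correction (limma adjusted p = 0.0336). The level of HOXC11 was 4.09 and 3.82 FPKM in unstimulated control cells and 3.12 and 2.38 FPKM with TNF-α, and in KD cells it was 1.92 and 1.7 FPKM without and 1.9 and 1.94 FPKM with TNF-α. HOXC11, a gene of lumbar and hindlimb levels, was 2.19-fold lower (log2 fold change -0.82 ± 0.12 SE, limma adjusted p = 0.000881), and -0.48 after the correction (limma adjusted p = 0.0081). HOXB7, with the values above, was 1.46-fold lower (log2 fold change -0.51 ± 0.11 SE, limma adjusted p = 0.0058), and -0.25 after it (limma adjusted p = 0.0393). HOXB6 rose 1.5-fold (log2 fold change 0.44 ± 0.11 SE, limma adjusted p = 0.0102) and 0.90 after the correction (limma adjusted p = 0.000684). These 4 members kept their direction and their call after the correction. Scaled to total reads HOXB7 was at -0.24 (limma adjusted p = 0.0623). With upper-quartile factors 0 members were called higher, HOXB6 included, against 23.0% of all genes.

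Control cells held HOXD9 at 4.85 and 3.92 FPKM and KD cells at 2.32 and 2.49 FPKM without stimulation, against 3.43 and 3.05 FPKM in control and 2.82 and 2.2 FPKM in KD cells after TNF-α. HOXD9, a limb gene and the second most GC-rich member tested at 62.7%, was 1.82-fold lower (log2 fold change -0.66 ± 0.14 SE, limma adjusted p = 0.00389), and -0.01 after the correction. HOXC10 stood at 10.1 and 8.15 FPKM in unstimulated control cells, 6.3 and 6.09 in unstimulated KD cells, 6.01 and 6.68 in stimulated control cells, and 4.92 and 5.56 in stimulated KD cells. HOXC10, a lumbar cord gene, was 1.47-fold lower, and -0.13 after it. HOXA11-AS, on the opposite strand, shares 31.1% of the exon bases of HOXA11. In the same comparison HOXB9 was 1.51-fold lower, HOXC13 1.54-fold, HOXC9 1.49-fold and HOXA11 1.51-fold, with corrected log2 fold changes of -0.12, -0.03, -0.06 and -0.06. None of these 6 was called after the correction. HOXA4 and HOXD8, also called lower, were at 0.12 and 0.17 after it and thus changed sign.

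**Figure D5:**
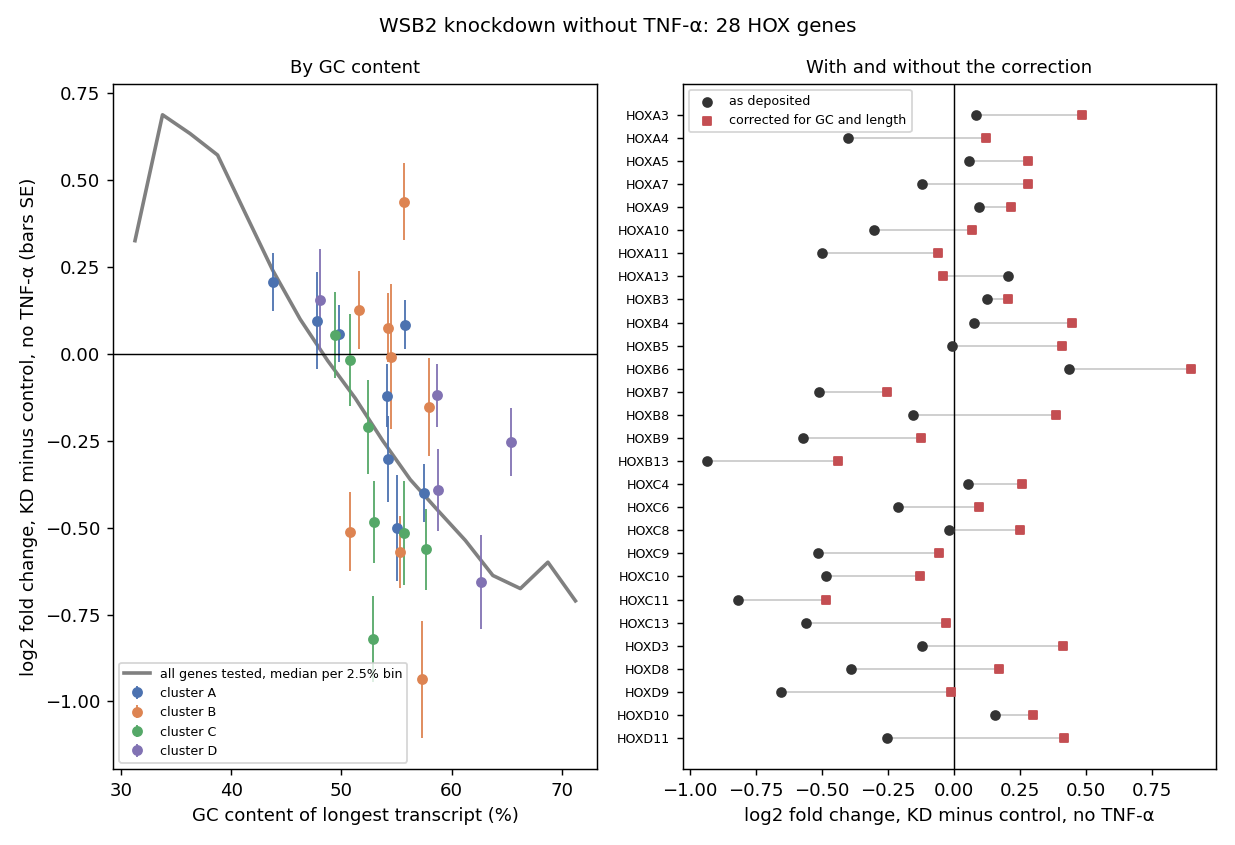
Left, log2 fold change of 28 HOX genes in KD against control cells without TNF-α by GC content of the longest transcript (bars SE), with the median of all genes per 2.5% bin as a grey line; right, the same fold changes as deposited (circles) and with the GC and length correction (squares). Members lie on both sides of the line, with HOXB13, HOXC11 and HOXB7 among those below it and HOXB6 among those above it.

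With TNF-α, KD and control cells differed in 0 of 29 members by limma and 0 by voom, where 0.0545% of all genes were called lower and 0.0605% higher. At an unadjusted p under 0.05 there were 4 members (13.8%), against 8.16% of all genes. The median log2 fold change was -0.01, with 15 of 29 members below 0. On the log2(FPKM + 1) scale the 4 members with the largest differences were HOXC13 (-0.53 ± 0.12 SE, limma adjusted p = 0.204), HOXC11 (-0.36 ± 0.12 SE, limma adjusted p = 0.48), HOXA4 (0.30 ± 0.08 SE, limma adjusted p = 0.323) and HOXA11 (-0.29 ± 0.15 SE, limma adjusted p = 0.712). By the ratio of means HOXD10, at 0.153 against 0.390 FPKM, differed more (2.54-fold, limma adjusted p = 0.725). By cluster, 6 of 7 HOXC and 4 of 5 HOXD members tested were below 0, against 3 of 9 in HOXA and 2 of 8 in HOXB. Of all genes tested, 50.0% were below 0, and the difference between clusters was not tested.

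Genes that act with or on HOX genes were counted from 4 lists. For TNF-α in control cells, 0 of 7 tested PBX, MEIS and PKNOX cofactors, 1 of 30 Polycomb genes higher and 1 lower, 2 of 18 activators higher and 1 of 10 cluster lncRNAs lower passed the test. Of all genes tested, 3.1% were called higher and 1.14% lower. PHC2 (log2 fold change 0.72, limma adjusted p = 0.0029) is a subunit of the canonical PRC1 complex, and KDM6B (1.07, limma adjusted p = 0.00209) removes the methyl marks that PRC2 places on histone H3, while DOT1L (0.46, limma adjusted p = 0.0449) methylates H3 in transcribed genes. The lncRNA was HOXC13-AS, which runs opposite to HOXC13 and covers 7.10% of its exons. For HOXC13-AS the libraries read 1.52 and 1.72 FPKM in control and 1.22 and 1.29 in KD cells without TNF-α, and 0.714 and 0.461 in control and 0.411 and 0.404 in KD cells with it. It was lower with TNF-α in control cells (log2 fold change -0.73, limma adjusted p = 0.00787) and in KD cells (-0.68, limma adjusted p = 0.000737), as HOXC13 was, and reads of both in the shared exon cannot be told apart without strand.

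In the comparisons that use the unstimulated KD libraries more genes of the lists were called, as more of all genes were, and the list values are given without the GC and length correction. Knockdown without TNF-α called 12 of 30 Polycomb genes higher and 10 lower, 6 of 18 activators higher and 4 lower, 2 of 7 cofactors higher and 2 lower, and 2 of 10 lncRNAs higher. Of all genes, 29.8% were called higher and 30.2% lower there. TNF-α in KD cells called 10 Polycomb genes higher and 11 lower, 7 activators higher and 6 lower, 2 cofactors higher and 4 lower, and 3 lncRNAs lower. Of all genes, 31.1% were called higher and 31.4% lower in that comparison. HOTAIR, the HOXC lncRNA linked to Polycomb, was among these 3 lncRNAs (log2 fold change -0.999, limma adjusted p = 0.00265), as was HOXB-AS3 (-1.04, limma adjusted p = 0.000309). HOXB-AS3 was higher in unstimulated KD than control cells (1.05), as HOXB6 was. With TNF-α, KD and control cells differed in 0 genes of the 4 lists at the adjusted threshold.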

How the data were processed

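RNA-seq of U2OS cells was analysed from the deposited tables, 8 libraries in 4 groups of 2, named by the labels. The authors deposited FPKM values per gene, scaled to gene length and to a library size set over all libraries, with 0 columns unused. The submitters' processing notes name CASAVA 1.8, fastp, HISAT2 2.0.5, featureCounts 1.5.0-p3, DESeq2 1.20.0 and GRCh38 (hg38). The strand of counting is not given in the sources used here. Each value times gene length was a whole multiple of 1 constant per library (100% of values, tolerance 0.05), which gave back the reads, 15601098 to 18677023 per library. The gene IDs of all 58735 genes were found in GENCODE release 29.

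A gene was kept (16528 genes) where 2 or more libraries held 10 reads, counted at the median depth, and the 8 libraries held 15 together. Group means were fitted with limma 3.58.1 (R 4.3.3, mean-variance trend) to log2(FPKM + 1), with 4 residual degrees of freedom, and p-values were adjusted by Benjamini-Hochberg over all genes kept. Alternatives were a pseudocount of 0.1, other filters, only the 4 libraries compared, upper-quartile factors, total reads, a voom fit of the recovered reads, the removal from each library of a spline fit (5 degrees of freedom) of its log2 values to the GC content and length of genes, the replicate number as a block, and each library left out. The scripts were tested on simulated data. Promoter windows come from RefSeq (GRCh38.p14).

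The HOX genes, the gene lists (9 cofactors, 30 Polycomb genes, 20 activators, 18 cluster lncRNAs) and the tests were chosen with earlier results of these data known. Values in every library were given for the member with the highest mean level of each cluster, and for the members called in a comparison, up to the 10 largest log2 fold changes, or the 4 largest where none was called. The values of 1 member and 1 listed gene are not reported here, in text or plots, and both remain in the counts. Values after ± are the SD between the libraries of a group or the SE of the limma fit, as marked.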

Additional observations from a re-analysis of the deposited data

Results flagged for a closer look

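The TNF-α effect differed between KD and control cells by the interaction test for 3 HOX genes. HOXA4 gave 0.70 ± 0.12 SE on the log2 scale (limma adjusted p = 0.00335), HOXB7 gave 0.52 ± 0.16 SE (limma adjusted p = 0.0328) and HOXA13 gave -0.36 ± 0.12 SE (limma adjusted p = 0.0402). The interaction kept its call in 15 of 16 alternative fits for HOXA4, 7 of 16 for HOXB7 and 5 of 16 for HOXA13. The unstimulated KD libraries had a lower GC content of genes, weighted by reads, than the other 6. Their part was not tested beyond the GC and length correction, under which the limma adjusted p-values were 0.254, 0.129 and 0.515.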

How the results depend on the processing

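Each of the up to 10 members of largest change per comparison kept its direction in all fits run. Over all 29 members tested, the GC and length correction changed the sign of 11 for KD without TNF-α, 8 for TNF-α in KD cells and 15 for the interaction, and of 0 in the other comparisons. HOXA4 (0.12) and HOXD8 (0.17), for KD without TNF-α, were the members among these that had been called, and 2, 4 and 2 of them were called with the new sign. The median of the members became 0.17 for KD without TNF-α and -0.23 for the interaction. The counts of members called moved as follows, with the share of all genes tested that were called the same way in brackets. For KD against control cells without TNF-α, 0 members were higher with upper-quartile factors (23.0%). Scaled to total reads, 4 were higher (39.4%) and 5 lower (20.9%), and after the GC and length correction 6 were higher (24.6%) and 3 lower (27.4%). For TNF-α in KD cells, 7 members were lower with upper-quartile factors (24.7%). Scaled to total reads, 19 were lower (43.8%) and 0 higher (20.02%). After the correction 23 were lower (26.1%) and 0 higher (30.5%). With 1 library left out, the median log2 fold change of the members lay between -0.241 and -0.149. For TNF-α in control cells, 2 of the 39 members were lower with no filter and 32613 genes tested (0.245%), and 1 with only the 4 libraries compared (0.218%). By voom 5 were lower (1.13%). Without the unstimulated KD libraries, an alternative chosen after seeing the data, 4 were lower (0.581%). For the interaction, 1 member was higher (9.59%) and 0 lower (9.64%) with no filter. With a mean of at least 1 RPM, 4 were higher (28.6%) and 2 lower (24.3%). With upper-quartile factors 8 were higher (31.1%) and 0 lower (16.8%). Scaled to total reads, 1 was higher (14.8%) and 2 lower (30.1%). After the correction 0 were higher (19.0%) and 4 lower (15.8%). By voom 0 were lower (21.3%), as with a pseudocount of 0.1 (20.5%). The cause of these moves was not tested.

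Scaled to total reads, the median log2 fold change of all genes moved to 0.13 for KD without TNF-α, -0.19 for TNF-α in KD cells and -0.14 for the interaction, and the share of calls that were higher moved from 49.7% to 65.3%, from 49.8% to 31.4% and from 51.7% to 32.9%. For TNF-α in control cells that share moved from 73.0% to 60.3%.

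With the replicate block, 1 HOX gene was higher (29.4% of all genes) and 12 lower (29.7%) for KD without TNF-α. For KD with TNF-α 0 were called (0.0363% higher and 0.0242% lower of all genes). For TNF-α in control cells 6 were lower (0.908%), and in KD cells 1 was higher (30.8%) and 10 lower (31.0%). The interaction was called higher for 2 (23.4%) and lower for 1 (21.6%). The deviations of equally numbered libraries correlated between -0.19 and 0.35 over the 6 pairs of groups, so that the numbers were not taken to pair the libraries. The fewest reads of a member tested were 71 in all 8 libraries, in HOXA5 and in HOXB4, and 10 members had too few reads to be tested.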
